A study of Homo sapiens with 6 samples.

Results

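This section describes 49 human genes that encode SR-like proteins and core components of the spliceosome, among 19775 genes measured on arrays of ARPE-19 cells. They were chosen by name, as 22 SR-like proteins and 27 core proteins, and each was represented by its brightest probe set (highest mean over all 6 arrays) among those that name that gene alone. All 49 had such a probe set. ARPE-19 is an established line derived from human retinal pigment epithelium. All arrays came from this line, grown with 10% serum. In 3 arrays the cells had received 0.1% DMSO, the solvent, for 4 h, and in 3 arrays SRPIN803 at 10 µM for 4 h. Whether replicates came from different cultures is not in the labels, so a p-value here reflects only how these samples spread, and that spread may be technical. SRPIN803 inhibits the kinases SRPK1, which acts on serine-arginine (SR) proteins, and CK2.

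The spliceosome removes introns and is built on each intron from small nuclear ribonucleoproteins (snRNPs). U1 marks the 5' splice site, U2 the branch site, and the U4/U6.U5 tri-snRNP joins before catalysis. SR-like proteins carry stretches of alternating arginine and serine, as SR proteins do, which SRPK and CLK kinases phosphorylate. They bind exonic enhancers, bridge snRNPs across exons or build nuclear speckles. Transcript levels, which the arrays report, say nothing of phosphorylation, and in a bulk sample a change in the share of cells and in RNA per cell cannot be told apart.

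Values are log2 probe set signals as deposited, and a change is the SRPIN803 mean minus the DMSO mean on that scale. A gene was called when limma's p, adjusted by Benjamini-Hochberg over all 19775 genes, was under 0.05, and errors beside changes are limma's standard errors. All 49 genes lay above the median level of all genes, 6.53. Pearson correlations between arrays were 0.994 to 0.998, and those with SRPIN803 replicate 2 were the lowest within its group. Of 12 markers of retinal pigment epithelium, 6 lay above the median level (KRT8, KRT18, OTX2, MITF, BEST1 and SERPINF1) and 6 below it (RPE65, RLBP1, LRAT, TYR, PMEL and TTR). None of 4 photoreceptor, 4 leukocyte and 4 endothelial markers measured did, and 2 of 5 fibroblast markers did (COL1A1 and PDGFRB).

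After SRPIN803, 3 SR-like genes were lower, SON, RBM25 and RBM39, and 1 was higher, PNISR. Among core genes 1 was higher, PRPF38A, and 0 were lower. All 5 changes were between 1.22-fold and 1.30-fold. The count was 5 of 49 genes (10.2%), where 5.84% of all genes were called, 2.37% lower and 3.46% higher. Among SR-like genes it was 4 of 22 (18.2%), and among core genes 1 of 27 (3.70%). At an unadjusted p under 0.05, limma gave 12 of 22 SR-like genes (7 lower, 5 higher) and 3 of 27 core genes (2 lower, 1 higher). Over all 19775 genes it gave 3854 (1522 lower, 2332 higher).

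The count of 5 depended on each array. It was 2 without SRPIN803 replicate 1, 1 without SRPIN803 replicate 3 or DMSO replicate 1, and 0 without SRPIN803 replicate 2, DMSO replicate 2 or DMSO replicate 3. It also differed when dim genes were left out of the fit. That changed the standard errors (RBM25 0.058 against 0.066) as well as the adjustment, and their parts were not separated. When limma was run on the 9888 genes at or above the median level alone, 14 of the 49 genes were called (28.6%), against 19.7% of those genes. They were 12 of 22 SR-like genes, 7 lower and 5 higher, and 2 of 27 core genes, 1 in each direction. Beside the 5 already named these were SRRM2, LUC7L, SRRM1 and LUC7L2 on the lower side, SREK1, U2SURP, LUC7L3 and RSRC1 on the higher side, all SR-like, and the core gene PRPF3, lower.

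**Figure D1:**
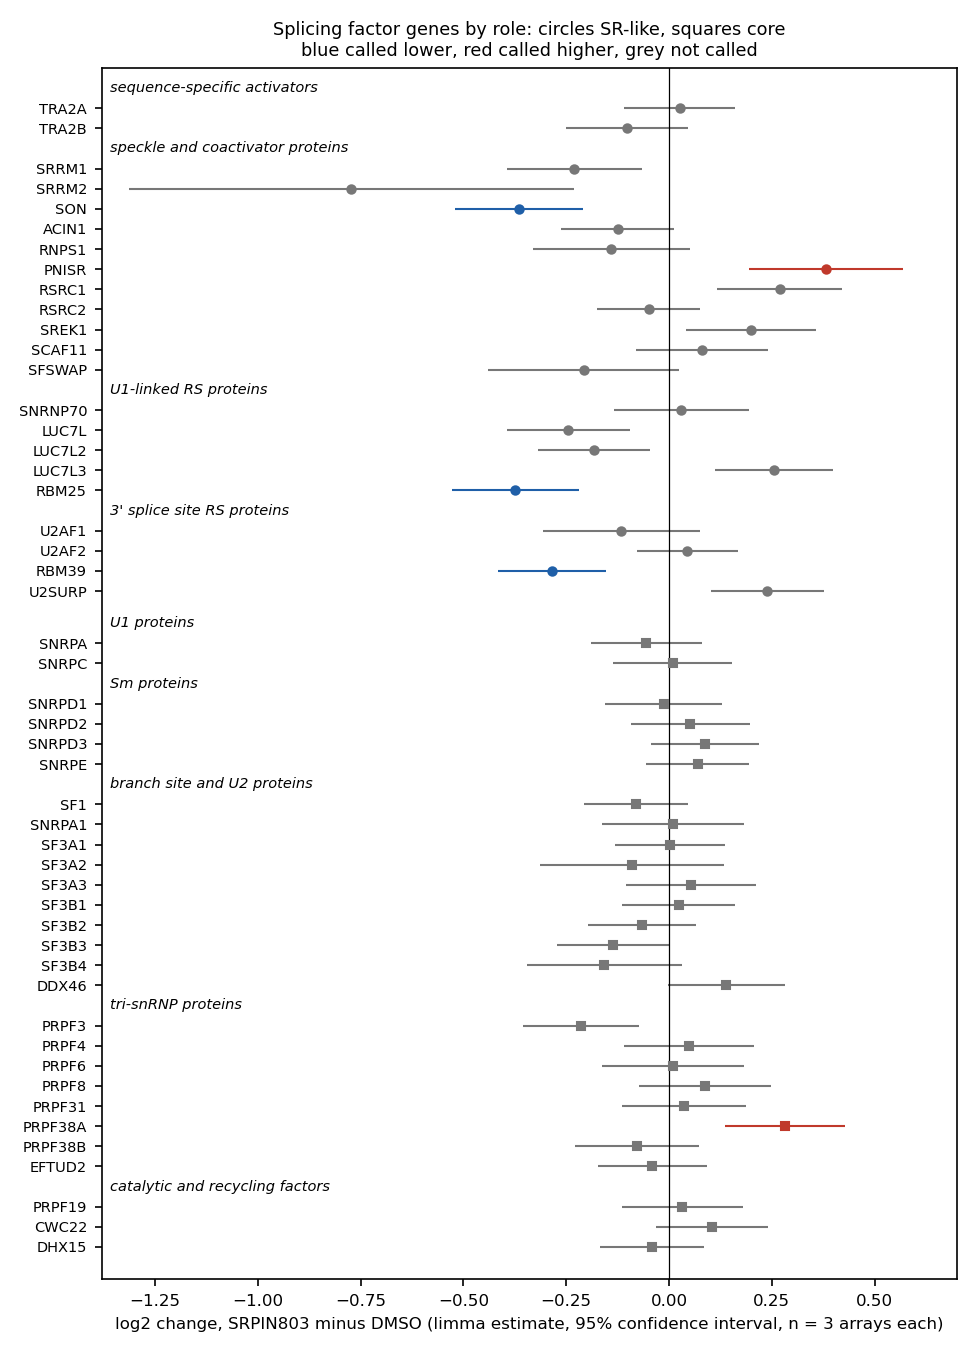
Change of each gene on the log2 scale (x axis, SRPIN803 minus DMSO), with limma's 95% confidence interval, grouped by role on the y axis. Circles are SR-like genes and squares are core genes. The called genes RBM25, SON and RBM39 lie to the left of 0 and PNISR and PRPF38A to the right, and the SR-like genes spread more widely around 0 than the core genes.

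The SR-like genes were spread to both sides of 0 and the core genes lay near it. The median change was -0.11 over the SR-like genes and 0.01 over the core genes, beside 0.02 over all genes. The median size of the change, regardless of sign, was 0.20 for SR-like and 0.06 for core genes, where all genes gave 0.09. As deviations from each gene's DMSO mean, the SR-like medians of the 3 SRPIN803 arrays were -0.03, -0.10 and -0.09, and those of the 3 DMSO arrays -0.02, 0.04 and -0.03. SRPIN803 replicate 1 thus overlapped with the DMSO arrays. The core medians ran from -0.03 to 0.03 over all 6 arrays. No test was made of the lists, whose members were chosen by name with earlier results known.

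In 16 of 22 SR-like genes the groups did not overlap, 10 of them with SRPIN803 lower and 6 with it higher. In 9 of 27 core genes they did not overlap, 4 lower and 5 higher. That makes 72.7% of the SR-like and 33.3% of the core genes, where the share was 25.6% over all genes (10.4% lower, 15.2% higher) and 38.0% over genes at or above the median level. The core share was thus between those of all genes and of the brighter genes.

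SON is a very large RS-rich protein that forms part of the framework of nuclear speckles, and its gene was measured at 11.26, 11.39 and 11.34 in DMSO replicates 1 to 3 and 10.89, 10.97 and 11.03 in SRPIN803 replicates 1 to 3. The highest SRPIN803 array was below the lowest DMSO array. The change was -0.37 ± 0.07, 1.29-fold lower (95% interval 1.16 to 1.43), with limma's adjusted p = 0.0237. PNISR encodes an RS-rich nuclear protein that binds pinin, and it moved the other way. It was at 9.99, 10.03 and 9.82 in DMSO and 10.22, 10.38 and 10.39 in SRPIN803, again without overlap. Its change was 0.38 ± 0.08, 1.30-fold higher (1.14 to 1.48), with limma's adjusted p = 0.0362.

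RBM25 binds RNA and the U1-linked protein LUC7L3 and acts on the choice of 5' splice sites. It was at 10.68, 10.79 and 10.61 in DMSO and 10.36, 10.31 and 10.27 in SRPIN803. The groups were separate, and the change was -0.37 ± 0.07, 1.30-fold lower (1.16 to 1.44), with limma's adjusted p = 0.0215. RBM39, a relative of the large U2AF subunit and the protein that aryl sulfonamide degraders remove, was at 11.07, 11.16 and 11.11 in DMSO. In SRPIN803 it was at 10.81, 10.84 and 10.84, the closest replicates of these 5 genes. Its change was -0.29 ± 0.06, 1.22-fold lower (1.11 to 1.34), with limma's adjusted p = 0.0293.

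PRPF38A, a factor that joins with the tri-snRNP and is needed for activation of the spliceosome, was the core gene called. It was at 8.61, 8.76 and 8.70 in DMSO and 8.96, 8.95 and 9.01 in SRPIN803. Every SRPIN803 array lay above every DMSO array, with a change of 0.28 ± 0.06, 1.22-fold higher (1.10 to 1.34), and limma's adjusted p = 0.0433.

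Each of the 5 calls was lost in some fits with 1 array left out, while the direction was kept in all of them. SON kept its call without DMSO replicate 1 and without SRPIN803 replicate 3, and lost it without the other arrays (adjusted p up to 0.0988). RBM25 and PNISR kept it only without SRPIN803 replicate 1 (up to 0.0755 and 0.128). RBM39 and PRPF38A lost it without any 1 array (up to 0.113 and 0.142). Over these fits SON stayed between -0.40 and -0.33, RBM25 between -0.41 and -0.33, RBM39 between -0.31 and -0.26, PRPF38A between 0.24 and 0.32 and PNISR between 0.32 and 0.44.

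**Figure D2:**
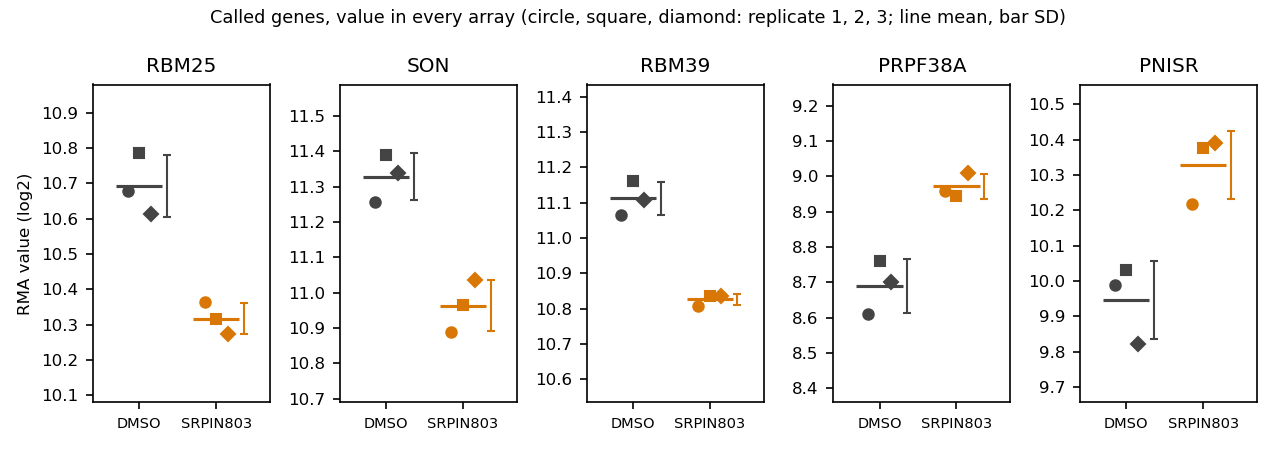
Log2 value (y axis) of the 5 called genes in every array, with DMSO in grey and SRPIN803 in orange, the mean as a line and the SD as a bar (n = 3). Each panel spans the same range of log2 values, and the groups are separate in all 5 genes, with SRPIN803 lower in RBM25, SON and RBM39 and higher in PRPF38A and PNISR.

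The promoters of 4 called genes are shown so that genes that were lower and genes that were higher can be set side by side. RefSeq's table held 44 of the 49 genes. Each window runs 5' to 3' from 250 bases before to 50 bases after the annotated start on GRCh38.p14. Capitals mark motif matches on either strand. The motifs were the ETS core, CCGGAAG, and the E-box, which reads CACGTG. The CCAAT box is named by its letters, and the TATA box was searched as TATAAA. NRF1 and YY1 motifs were searched too. SON lies at chr21:33542788-33543087 (+), RBM25 at chr14:73058284-73058583 (+), PNISR at chr6:99425259-99425558 (-) and PRPF38A at chr1:52404352-52404651 (+).
SON: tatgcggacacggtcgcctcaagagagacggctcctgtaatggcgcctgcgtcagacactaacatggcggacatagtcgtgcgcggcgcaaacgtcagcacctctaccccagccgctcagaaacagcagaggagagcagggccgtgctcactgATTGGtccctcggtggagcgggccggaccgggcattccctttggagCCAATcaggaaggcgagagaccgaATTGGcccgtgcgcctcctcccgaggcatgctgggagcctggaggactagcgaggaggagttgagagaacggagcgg
RBM25: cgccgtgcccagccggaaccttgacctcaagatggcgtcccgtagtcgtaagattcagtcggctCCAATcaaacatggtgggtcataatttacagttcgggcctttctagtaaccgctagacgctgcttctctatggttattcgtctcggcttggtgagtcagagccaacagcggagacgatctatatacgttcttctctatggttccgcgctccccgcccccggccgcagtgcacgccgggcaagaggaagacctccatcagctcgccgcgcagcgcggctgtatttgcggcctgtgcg
PNISR: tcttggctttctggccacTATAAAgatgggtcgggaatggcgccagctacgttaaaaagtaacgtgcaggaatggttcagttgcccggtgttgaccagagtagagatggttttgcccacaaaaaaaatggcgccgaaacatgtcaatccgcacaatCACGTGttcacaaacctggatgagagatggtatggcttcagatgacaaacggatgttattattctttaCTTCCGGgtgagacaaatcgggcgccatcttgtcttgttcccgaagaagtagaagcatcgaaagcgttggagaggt
PRPF38A: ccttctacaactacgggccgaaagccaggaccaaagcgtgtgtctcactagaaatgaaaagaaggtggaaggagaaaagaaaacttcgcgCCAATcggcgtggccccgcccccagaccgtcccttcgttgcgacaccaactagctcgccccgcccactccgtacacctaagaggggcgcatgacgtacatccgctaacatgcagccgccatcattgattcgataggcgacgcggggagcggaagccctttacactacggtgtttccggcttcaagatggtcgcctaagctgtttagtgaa
The SON window holds 3 CCAAT matches, and those of RBM25 and PRPF38A hold 1 each. The PNISR window holds none, but 1 match each to the ETS core, the E-box and the TATA box, and it has the lowest GC content of the 4, 47.3% against 56.3% to 63.3%. A CCAAT match is in 35.7% of all 27305 promoters of this length, 40.0% of the SR-like and 41.7% of the core promoters, so it is common everywhere. An ETS core is in 10.7% of all promoters and 20.9% of those of genes at or above the median level. It is in 7 of 20 SR-like (35.0%) and 11 of 24 core promoters (45.8%). An E-box is in 7.43% of all promoters, 10.7% of those of the brighter genes, 10% of the SR-like and 8.33% of the core promoters. For a TATA box these shares are 12.0%, 5.01%, 5% and 4.17%. NRF1 and YY1 matches are in 1.36% and 1.28% of all promoters, and in 2.59% and 3.09% of those of the brighter genes. Among the 44 promoters they are in 0 and 2, the latter SF3A1 and PRPF38B. A match describes these letters and is not a site.

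Of the 44 genes 17 start within 1000 bases of a gene that runs away from them on the other strand. In 11 pairs the partner was measured, and 0 of the 11 partners were called by limma. SON starts 146 bases from GART, a purine synthesis gene, which changed by -0.17 ± 0.08 (adjusted p = 0.279). PRPF38A starts 179 bases from ORC1, a subunit of the origin recognition complex, which was at 0.35 ± 0.15 (adjusted p = 0.270) with a level below the median. Over the 11 pairs 6 partners had the sign of their neighbour and 5 the opposite sign.

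Among the 11 genes of speckle and coactivator proteins, SON and PNISR were called (18.2%), where 5.84% of all genes were. The groups did not overlap in 8 (72.7%), against 25.6% of all genes and 38.0% of those at or above the median level. SRRM2, which with SON holds speckles together, had the lowest value of all 49 genes, -0.77 ± 0.23, and was not called (adjusted p = 0.106). It was at 9.67, 9.81 and 9.61 in DMSO and at 9.37, 8.34 and 9.07 in SRPIN803. Replicate 2 lay 0.73 below the next lowest array, and without it the change was -0.48. SRRM1, a coactivator that bridges enhancers and snRNPs, was at -0.23 ± 0.07 (adjusted p = 0.110).

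The other 7 genes of this group were not called by limma (2 at an unadjusted p under 0.05), with 3 changes above 0 and 4 below. RSRC1, an SR-related protein of 3' splice site recognition, was at 0.27 ± 0.07 (adjusted p = 0.0577), and SREK1, an SR-related regulator, at 0.20 ± 0.07 (0.155). Both directions depended on the probe set, and in part on SRPIN803 replicate 2. RSRC1 was at -0.13 without _x_at and _s_at probe sets, and at -0.01 there without that array. SREK1 was at -0.01 with the mean of all its probe sets, of which 2 of 8 were below 0. The brighter of these was at -0.28, and at 0.02 without that array. The dimmer, at a level of 3.63, was at -0.45. SFSWAP, the homologue of the fly suppressor of white-apricot, was at -0.21 ± 0.10. ACIN1 and RNPS1, which meet in the ASAP complex at exon junctions, were at -0.13 ± 0.06 and -0.14 ± 0.08. SCAF11 and RSRC2 were at 0.08 ± 0.07 and -0.05 ± 0.05, and SCAF11 was at -0.20 with the mean of its probe sets.

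Of the 5 U1-linked SR-like genes RBM25 was lower, as given above. LUC7L, LUC7L2 and LUC7L3 are relatives of yeast Luc7, a U1 protein that acts on 5' splice sites. LUC7L was at 9.48, 9.63 and 9.55 in DMSO and 9.28, 9.36 and 9.28 in SRPIN803, a change of -0.25 ± 0.06 (adjusted p = 0.0708). LUC7L2 was at -0.18 ± 0.06 (adjusted p = 0.127). LUC7L3 was at 11.17, 11.19 and 11.10 in DMSO and 11.35, 11.47 and 11.41 in SRPIN803, a change of 0.26 ± 0.06 (adjusted p = 0.0556). In these 3 probe sets the groups did not overlap. The direction of LUC7L3 depended on the probe set. A second one was at 0.28, and the other 4 were between -0.56 and -0.05, with overlapping groups. The brightest of these 4 was at 11.41, 10.62 and 11.42 in SRPIN803, and its change was 0.22 without replicate 2. The remaining 3, at levels of 5.30 to 6.70, stayed below 0 without it. The gene was at -0.05 with the mean of all probe sets and at -0.16 without _x_at and _s_at probe sets, the sign of LUC7L and LUC7L2. None of LUC7L, LUC7L2 and LUC7L3 was called by limma over all genes. All 3 genes had an unadjusted p under 0.05, and the difference between them was not tested. SNRNP70, the U1 protein that SR proteins contact, was at 0.03 ± 0.07.

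Of the 4 SR-like genes that act at the 3' splice site, RBM39 was lower, as given above. U2SURP, a U2-associated SR-related protein, was at 11.17, 11.26 and 11.18 in DMSO and 11.47, 11.39 and 11.46 in SRPIN803. Its groups did not overlap, and its change was 0.24 ± 0.06 (adjusted p = 0.0608). The U2AF subunits, which read the AG and the pyrimidine tract, were at -0.12 ± 0.08 for U2AF1 and 0.04 ± 0.05 for U2AF2. The sequence-specific activators TRA2A and TRA2B, which bind GA-rich enhancers, were at 0.03 ± 0.06 and -0.10 ± 0.06. TRA2B was at 12.19, 12.22 and 12.22 in DMSO and 12.19, 12.02 and 12.12 in SRPIN803, with the groups all but touching (adjusted p = 0.455).

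Core snRNP genes other than PRPF38A were measured with small changes and narrow intervals. The 26 that were not called lay between -0.21 and 0.14, and their 95% intervals together ran from -0.36 to 0.28. A change beyond that range lies outside the interval of each of these probe sets. This is no evidence that the levels were equal.

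The 4 Sm genes, for proteins of the ring around each snRNA, were at 0.09 ± 0.06 (SNRPD3), 0.07 ± 0.05 (SNRPE), 0.05 ± 0.06 (SNRPD2) and -0.01 ± 0.06 (SNRPD1). SNRPD3 was at 11.63, 11.59 and 11.57 in DMSO and 11.72, 11.68 and 11.65 in SRPIN803, separate by a narrow margin (adjusted p = 0.469). The U1 genes SNRPA and SNRPC were at -0.06 ± 0.06 and 0.01 ± 0.06. SNRPA was at 9.38, 9.34 and 9.39 in DMSO and 9.29, 9.38 and 9.27 in SRPIN803, which overlapped (adjusted p = 0.686).

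Of the 10 branch site and U2 genes 0 were called by limma, and 1, SF3B3, had an unadjusted p under 0.05. SF3B3, a scaffold of the SF3B complex, was at 9.35, 9.32 and 9.30 in DMSO and 9.15, 9.25 and 9.16 in SRPIN803, a change of -0.14 ± 0.06 (adjusted p = 0.255). The others were SF3B4 (-0.16 ± 0.08), DDX46, the helicase that remodels U2 (0.14 ± 0.06), SF3A2 (-0.09 ± 0.10), SF1, the first branch site binder (-0.08 ± 0.05), and SF3B2 (-0.07 ± 0.06). SF3A3, SF3B1, the target of splicing inhibitors such as pladienolide, SNRPA1 and SF3A1 were between 0.00 and 0.05.

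Among the 8 tri-snRNP genes, PRPF3, a U4/U6 protein, was at 7.84, 7.78 and 7.91 in DMSO and 7.58, 7.66 and 7.63 in SRPIN803. The groups did not overlap, and the change was -0.21 ± 0.06 (adjusted p = 0.0903). PRPF8, the protein at the catalytic centre, was at 0.09 ± 0.07, and the U5 GTPase gene EFTUD2 at -0.04 ± 0.06. PRPF4, PRPF31 and PRPF6 were at 0.05 ± 0.07, 0.04 ± 0.07 and 0.01 ± 0.07. PRPF38B, the paralogue of PRPF38A, was at -0.08 ± 0.06, with overlapping groups.

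The catalytic and recycling factors showed no call among 3. CWC22, which brings EIF4A3 to the spliceosome, was at 8.22, 8.32 and 8.27 in DMSO and 8.38, 8.41 and 8.34 in SRPIN803, a change of 0.10 ± 0.06 (adjusted p = 0.394). The helicase gene DHX15, which takes spliceosomes apart, was at -0.04 ± 0.05 and the ubiquitin ligase gene PRPF19 at 0.03 ± 0.06.

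The 49 genes had 147 probe sets of their own, and the 98 that the choice of the brightest left aside gave a second reading. LUC7L2 had 3 further probe sets that name several genes, which were not used. Over all 54613 probe sets, limma with adjustment over them called 5 of the 147 (3.40%), all lower, where 2.22% of all probe sets were called, 1.03% lower and 1.19% higher. Of the 5 there were 3 of RBM25, 1 of SCAF11 and 1 of U2SURP, all SR-like, and 0 of 55 core probe sets were called. At an unadjusted p under 0.05 there were 6 of the 55, where all 54613 probe sets gave 8542. The groups did not overlap in 57 of the 147, 39 with SRPIN803 lower and 18 higher, against 10.1% lower and 11.3% higher over all probe sets.

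Among the 70 SR-like probe sets other than the brightest, 50 had a change below 0, with a median of -0.17. Without SRPIN803 replicate 2 these were 53 and -0.10. Of the 28 such core probe sets 16 were below 0, with a median of -0.0035. Of the 38 genes with several probe sets, 15 had all below 0 and 3 all above.

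RBM25 was lower in all 7 of its probe sets, from -0.69 to -0.10, and from -0.53 to -0.15 without SRPIN803 replicate 2. The second called one, at 10.03, 10.16 and 10.00 in DMSO and 9.56, 9.41 and 9.55 in SRPIN803, changed by -0.56 ± 0.08 (adjusted p = 0.0165 over all probe sets). The third, a dimmer one, changed by -0.69 ± 0.13 (adjusted p = 0.0457). SON was below 0 in all 5 (-0.97 to -0.35) and RBM39 in all 4 (-0.40 to -0.14), with no call over all probe sets. Without SRPIN803 replicate 2 SON ran from -0.54 to -0.33 and RBM39 from -0.29 to -0.04. LUC7L was below 0 in all 5 (-0.34 to -0.23), SRRM2 in all 4 (-0.77 to -0.21) and PRPF38A above 0 in all 3 (0.10 to 0.28). Without that array LUC7L ran from -0.47 to -0.27, SRRM2 from -0.48 to -0.11 and PRPF38A from 0.10 to 0.30. For PNISR 3 of 6 were below 0 (-0.30 to 0.38), so its direction differed between probe sets. Without SRPIN803 replicate 2 its range was -0.15 to 0.40, and its second brightest was at 0.17 instead of -0.10. With the mean of all probe sets per gene PNISR was at 0.05 (adjusted p = 0.838), and RBM39 and PRPF38A also lost their calls.

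In U2SURP and SCAF11 a dim probe set was called lower, while the brightest of the gene was not called and had a value above 0. A dim one of U2SURP, at 5.20, 5.20 and 5.10 in DMSO and 4.52, 4.38 and 4.37 in SRPIN803, changed by -0.74 ± 0.07 (adjusted p = 0.00548), while the brightest pair were both at 0.24. For SCAF11 a dimmer one was at 7.31, 7.25 and 7.25 in DMSO and 6.79, 6.75 and 6.67 in SRPIN803. It changed by -0.53 ± 0.07 (adjusted p = 0.0115), while the brightest was at 0.08. In both called probe sets the groups were far apart, while in the brightest of SCAF11 they overlapped. With the mean of all its probe sets U2SURP was at -0.10. Which part of the transcript each probe set reads was not analysed here.

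Whether the probe sets of a gene changed unequally was tested with limma's diffSplice, using those whose signal reached the median over all probe sets, 5.26, and leaving out types prone to cross-hybridise (_x_at). It called 2 of 33 genes (6.06%), SNRPA1 and SF3B3, where 3.36% of 5535 genes were called. SCAF11 (adjusted p = 0.270) and U2SURP (0.0724) were not called, and the dim probe set of U2SURP lay below the level used. In SNRPA1, the U2 protein known as U2 A', a dimmer probe set was at -0.40, while the other pair compared were at 0.01 and 0.03 (Simes adjusted p = 0.0256). In SF3B3 the brighter was at -0.14 and the dimmer at 0.24 (0.0289). Both calls were lost without any 1 of the DMSO replicates and without SRPIN803 replicate 3, that of SNRPA1 also without SRPIN803 replicate 2 and that of SF3B3 also without SRPIN803 replicate 1 (adjusted p up to 0.194 and 0.148).

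**Figure D3:**
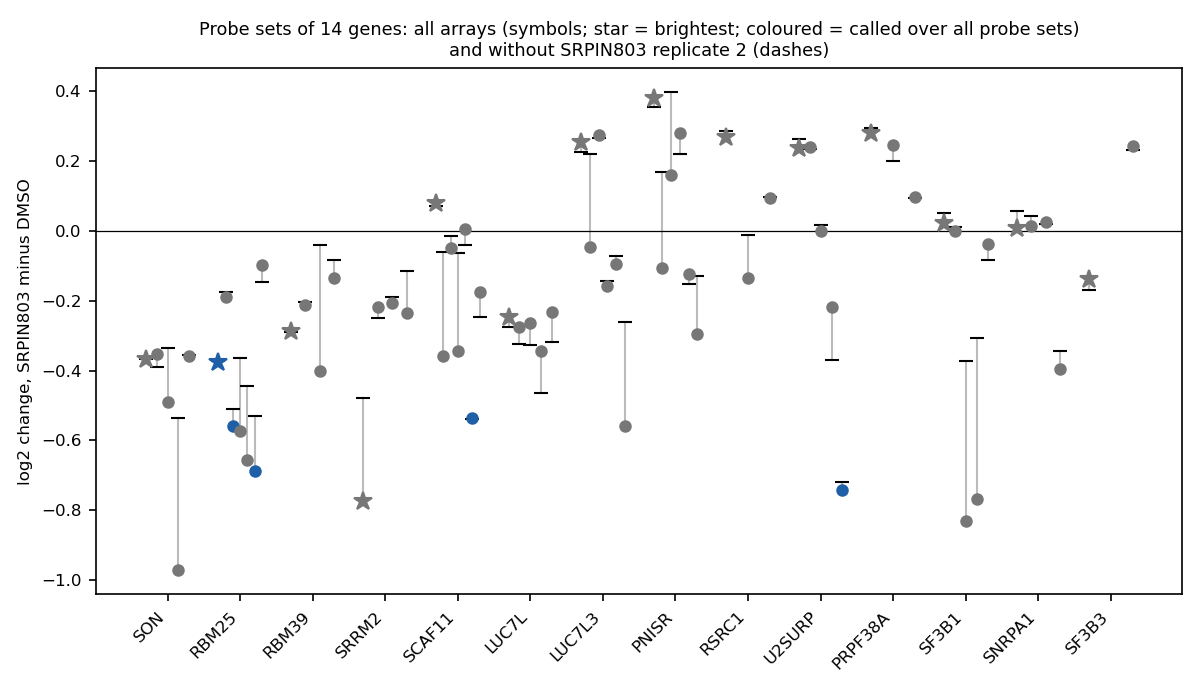
Change of every probe set (y axis, log2, SRPIN803 minus DMSO) of 14 genes, ordered from bright to dim within a gene, with the brightest as a star and those called over all probe sets in blue. Dashes give the change without SRPIN803 replicate 2. RBM25 and SON lie below 0 throughout, and U2SURP and SCAF11 hold called dimmer probe sets far below their stars. Without SRPIN803 replicate 2, 2 probe sets of SF3B1 rise from -0.83 and -0.77 to -0.37 and -0.31.

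SRPIN803 replicate 2 stood apart in a subset of these probe sets. In 14 of the 147 (9.52%) it lay at least 0.5 below all other 5 arrays, by 0.57 to 1.26. The same held in 0.996% of all probe sets, and in 0 of the 147 for any other array. At or above the median level it held for SRPIN803 replicate 2 in 10.9% of 128 such probe sets, against 1.67% of all 27307. The 14 belonged to 11 genes, 10 to SR-like and 4 to core genes, and only that of SRRM2 was the brightest of its gene. In SF3B1 one was at 9.50, 9.51 and 9.21 in DMSO and 9.26, 7.66 and 8.82 in SRPIN803. The brightest of SF3B1 was at 12.27, 12.22 and 12.32 in SRPIN803, where replicate 2 was not apart.

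A probe set of SON was at 9.29, 9.40 and 9.32 in DMSO and 8.84, 7.49 and 8.75 in SRPIN803, so that its change was -0.97 with and -0.54 without replicate 2. One of SCAF11 was at 10.53, 10.56 and 10.57 in DMSO and 10.49, 9.60 and 10.49 in SRPIN803, a change of -0.36 with and -0.06 without it. The SON probe set was far below DMSO in all 3 SRPIN803 arrays, and the SCAF11 one only in replicate 2. The actin control's 5' minus 3' signal, which tracks RNA integrity and labelling, was -1.46 in this array and -2.16 to -1.41 in the others. Its part in the pattern was not tested.

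**Figure D4:**
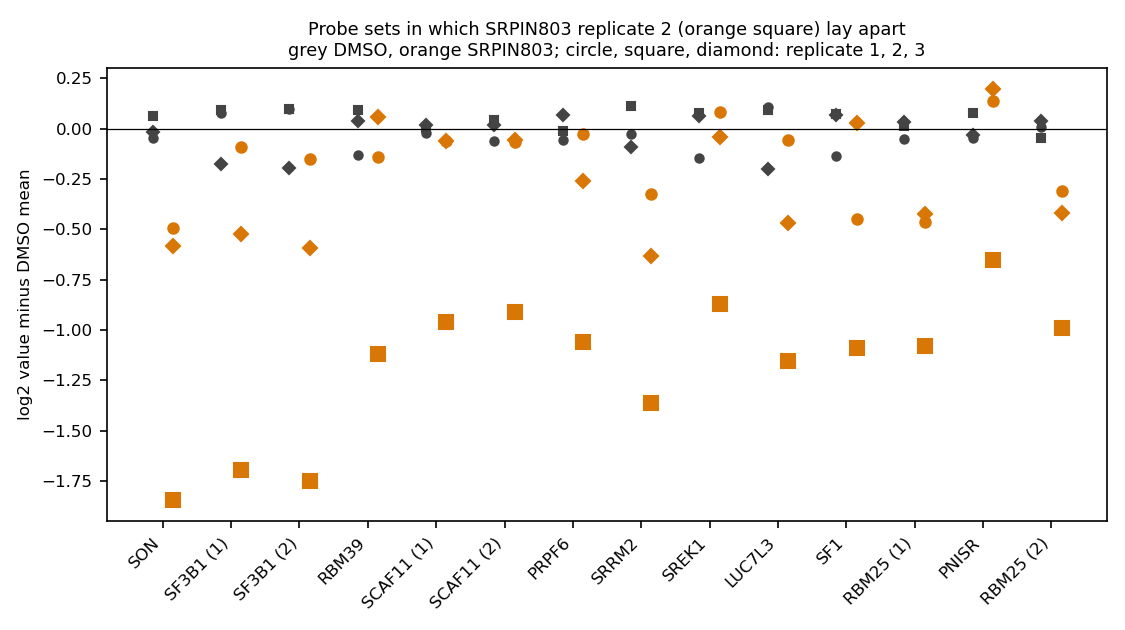
Log2 value minus the DMSO mean (y axis) in the 14 probe sets where SRPIN803 replicate 2, the large orange square, lay at least 0.5 below every other array, ordered by that gap; (1) and (2) number probe sets of the same gene. In SCAF11 the other SRPIN803 arrays lie close to DMSO, and in SON, RBM25 and SRRM2 they lie below it too.

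Further spliceosome genes were taken from lists written from textbook knowledge. Of 77 measured genes outside the SRSF family 2 rose and 2 fell (5.19% called, against 5.84% of all genes), with a median change of 0.02. SLU7, a second-step factor that helps choose the 3' splice site, was at 9.22, 9.20 and 9.21 in DMSO and 9.60, 9.60 and 9.56 in SRPIN803. Its change was 0.37 ± 0.05 (adjusted p = 0.0100), and it lost the call only without DMSO replicate 3 (0.0564). RNPC3, a protein of the minor spliceosome, changed by 0.44 ± 0.10 (0.0485), GEMIN5, which picks snRNAs for Sm ring assembly, by -0.35 ± 0.06 (0.0207), and SMNDC1, a U2-linked assembly factor, by -0.31 ± 0.06 (0.0285). These 3 lost the call in 5, 5 and 6 of the fits with 1 array left out. RNPC3 was at 0.0020 with the mean of its probe sets.

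By list, 0 of 11 other Sm and LSm genes were called (0 at an unadjusted p under 0.05), and all 11 changes were above 0, from 0.01 to 0.13 (LSM2 at 0.13 ± 0.08). Of 10 other tri-snRNP genes 0 were called (2 unadjusted), with SNRNP27, itself an RS protein, at 0.26 ± 0.07. Of 5 exon junction genes 0 were called (0 unadjusted), with RBM8A at 0.15 ± 0.08. The calls were 1 of 9 other U1 and U2 genes and 1 of 22 other catalytic-stage genes. They were 1 of 12 snRNP assembly genes and 1 of 8 minor spliceosome genes. Over all 19775 genes 5.84% were called, and 3854 had an unadjusted p under 0.05. In the snRNP assembly list 8 of 12 changes were below 0, with a median of -0.14. In the other catalytic-stage list 15 of 22 were above 0, with a median of 0.08.

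The SRSF family, the classical SR proteins, gave 4 of 10 genes lower and 0 higher by limma (40.0% called, against 5.84% of all genes). There were 6 at an unadjusted p under 0.05, 1 of them higher, where all 19775 genes gave 3854. The median was -0.15. The 4 called were SRSF7 (-0.39 ± 0.06), SRSF8 (-0.32 ± 0.05), SRSF3 (-0.29 ± 0.07) and SRSF6 (-0.25 ± 0.05), with adjusted p from 0.0141 to 0.0498. SRSF3 and SRSF6 lost the call without any 1 array, SRSF7 without 3 of the 6 and SRSF8 without 4. All 4 lost it with the mean of all probe sets, and SRSF3, SRSF6 and SRSF8 with the replicate block (adjusted p = 0.0671, 0.0858 and 0.0531). The SR-like genes shared the sign of that median, but had called genes in both directions. The comparisons use the same arrays, so the families are not independent of each other, and no difference between them was tested.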

How the data were processed

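The authors deposited 1 log2 value per probe set and array for 6 Affymetrix arrays, and per the submitters' processing notes these come from RMA. Its software and settings were not stated in what was used here. RMA aligns the distributions of arrays, which hides any change in total RNA. Of 54675 probe sets 62 were controls, 41091 named 1 gene by the platform annotation, 1801 several, and 11721 are unnamed here. The deposited values were used unchanged. The comparison of groups used limma (version 3.58.1, under R 4.3.3) with lmFit and eBayes, a two-sided test and no term beside group, leaving 4 residual degrees of freedom. Arrays give no depth, and 3 per group limit the precision. An exact permutation test of single genes cannot go below p = 0.1 and was not used. The members, roles and lists were chosen with earlier results of these data known. Called genes, and the gene with the smallest p in each role or list without a call, were described in full, others by their change. Promoter windows and gene positions came from RefSeq (GRCh38.p14). Protein sequences, which the naming rule also provided for, were not used here. Alternatives covered the replicate block, each array left out, a filter on dim genes, the probe set chosen, 3 normalizations, the variance model, array weights and an actin 5' to 3' covariate. Plots used matplotlib 3.10.9 in Python 3.11.15.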

Additional observations from a re-analysis of the deposited data

How the results depend on the processing

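The labels do not say whether the replicate numbers pair the arrays. Deviations of same-numbered arrays correlated at 0.18, -0.06 and 0.11, so not every array was closest to its own number. With the replicate block 689 genes, 2 members (2 SR-like, 0 core, 0 higher), 3 related genes, 1 member probe set and 0 genes with probe sets apart were called by limma. Of the unadjusted p, 14 members were then under 0.05, and 9 in the test of probe sets. With 1 array left out, calls ran from 324 to 687 genes, 0 to 2 members (0 to 1 lower, 0 to 1 higher, 0 to 2 SR-like, 0 core), 1 to 5 related genes, 1 to 6 member probe sets and 0 to 3 genes with probe sets apart, while 13 to 16 members had an unadjusted p under 0.05. Among features at or above the median level 1944 genes, 14 members (8 lower, 6 higher, 12 SR-like, 2 core), 20 related genes and 21 member probe sets were called. With an intensity trend and robust variances these were 2036, 11 (5 lower, 6 higher, 10 SR-like), 20 and 24. Of all probe sets 2667 of 27307 were called at or above the median level, and 2997 of 54613 with the trend and robust variances. The genes were 1944 of 9888 and 2036 of 19775. Of 54613 probe sets 304 were called with the replicate block, and 215 to 716 with 1 array left out. With the mean of all probe sets 2 members (2 SR-like, 0 core, 0 higher) and 5 related genes were called, and with the actin covariate 3 members (0 core, 0 higher). Members called higher were 1 without _x_at and _s_at probe sets, 4 after quantile normalization again and 1 (0 core) after median centring. The cause of these shifts was not tested, beyond the fewer features or samples that some settings hold.

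SNRPA1 went from 0.01 to -0.40 (adjusted p = 0.0279) without _x_at and _s_at probe sets, which leaves its dimmest one. Over 775 values of the 49 members under the alternatives, 42 changed sign, in 19 genes and none of the 5 called. Of these, 19 moved by over 1 standard error, through the choice of probe set. The class medians stayed within 1 SD of the arrays' medians (0.04 for SR-like, 0.02 for core) under every alternative. The core median, 0.01, took the other sign after median centring (-0.0036) and without SRPIN803 replicate 1 (-0.0014). Array signal limits what dim probe sets can show, and 3 arrays a group limit all calls.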
